A study of Mus musculus with 45 samples.

Results

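The 10 transcription factor genes described here, none of them a Hox gene, pattern the limb and were followed in cultured mouse forelimb buds: Msx1, Msx2, Lhx2, Lhx9, Lmx1b, Shox2, Alx4, Tbx2, Tbx3 and Tbx5. They were chosen by name, but with earlier results of these data known, and are 10 of the 35272 genes in the joined count data. Forelimb buds were taken from CD1 mouse embryos on gestation day 13, and poly-A RNA was sequenced after 3, 24 or 48 h. By the labels, limbs from male and female embryos shared a culture bottle. The 9 groups of 5 libraries were DMSO control, 1 µM BPAF and 5 µM BPAF at each of the 3 times. BPAF is bisphenol AF, an analog of bisphenol A in which trifluoromethyl groups take the place of the central methyl groups. The labels name this stock alone and no engineered allele, and every BPAF group has a DMSO group of its own culture time. The labels do not say whether the 5 replicates came from separate litters or days. The p-values therefore weigh differences only against the scatter of these libraries, some of it perhaps technical.

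The limb bud grows out under signals from the apical ectodermal ridge, the dorsal ectoderm and the posterior mesenchyme, and these transcription factors read or relay such signals. Msx1 and Msx2 are homeodomain proteins that respond to bone morphogenetic protein (BMP) signals and mark the undifferentiated distal mesenchyme, Msx2 also the ridge. Lhx2, Lhx9 and Lmx1b are LIM-homeodomain proteins: the first pair links distal mesenchyme to ridge and posterior signals, and Lmx1b gives limb mesenchyme its dorsal identity. Tbx5 starts forelimb outgrowth, Tbx2 and Tbx3 are T-box repressors of the limb margins, Shox2 is needed for the proximal skeleton, and Alx4 restricts posterior signalling to its own side.

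Promoter windows are shown for Msx1, Lhx2 and Shox2, 3 of the 4 members with a RefSeq window that holds no annotated exon of the gene (the other is Lmx1b), so that the sequences can be read beside the changes over time. Each run is the 250 bases before the RefSeq start (build GRCm38.p6, which is mm10), 5′ to 3′ on the gene's strand, with matches to a searched motif in capitals. The Msx1 window is chr5:37824586-37824835 on the minus strand, the Lhx2 window chr2:38339031-38339280 on the plus strand and the Shox2 window chr3:66981772-66982021 on the minus strand.
Msx1: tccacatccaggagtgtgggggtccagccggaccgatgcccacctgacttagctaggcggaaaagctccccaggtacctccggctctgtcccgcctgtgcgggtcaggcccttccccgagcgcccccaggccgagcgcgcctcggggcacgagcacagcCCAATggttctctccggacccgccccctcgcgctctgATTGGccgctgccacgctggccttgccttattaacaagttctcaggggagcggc
Lhx2: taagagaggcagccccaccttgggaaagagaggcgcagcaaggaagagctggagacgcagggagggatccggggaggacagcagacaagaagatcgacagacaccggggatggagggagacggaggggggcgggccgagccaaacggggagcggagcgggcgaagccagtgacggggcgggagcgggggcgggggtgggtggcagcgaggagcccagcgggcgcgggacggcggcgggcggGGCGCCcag
Shox2: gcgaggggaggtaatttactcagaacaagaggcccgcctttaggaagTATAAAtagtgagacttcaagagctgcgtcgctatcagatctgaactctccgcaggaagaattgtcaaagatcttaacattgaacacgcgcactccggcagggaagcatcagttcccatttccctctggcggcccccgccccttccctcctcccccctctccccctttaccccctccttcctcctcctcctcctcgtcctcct

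These 6 motifs were searched on both strands, and no match overlapped another: TAATTA (a homeodomain core), CCAAT (the CCAAT box), GGCGCC (a GC-rich SMAD element), AGGTGT (a T-box core), TTTGAA (the cell cycle homology region) and TATAAA (the TATA box). The Msx1 window held CCAAT at -91 and, on the other strand, at -54 from the start, and the Lhx2 window held GGCGCC at -9. The Shox2 window held TATAAA at -203. Over all 32851 RefSeq windows of the same length, CCAAT was found in 33.8%, GGCGCC in 9.59% and TATAAA in 12.4%. RefSeq windows matched 6 of the 10 members, and the Msx2, Lhx9 and Lmx1b windows, which are not printed, also held CCAAT. The Msx2 window held in addition TAATTA at -187, a motif found in 4.84% of all windows, and the reverse of TTTGAA at -168, found in 16%. The Lmx1b window held CCAAT at -236 and -84 and the reverse of TTTGAA at -76. AGGTGT, found in 11.8% of all windows, was in none of the member windows. Tbx2, Tbx3, Tbx5 and Alx4 had no window in the table used. The GC content was 68.0% for Msx1, 72.8% for Lhx2 and 55.6% for Shox2, beside a median of 52.4% over all windows.

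The members lie on 6 chromosomes (build mm10, positions as deposited, all 10 equal to GENCODE mouse release M21). Msx1 (ENSMUSG00000048450) is at chr5:37820485-37824583 on the minus strand and Msx2 (ENSMUSG00000021469) at chr13:53466884-53473074 on the minus strand. Lhx2 (ENSMUSG00000000247) is at chr2:38339281-38369733 on the plus strand, Lhx9 (ENSMUSG00000019230) at chr1:138825186-138848577 on the minus strand and Lmx1b (ENSMUSG00000038765) at chr2:33560965-33640511 on the minus strand. Shox2 (ENSMUSG00000027833) is at chr3:66971727-66981771 on the minus strand and Alx4 (ENSMUSG00000040310) at chr2:93642384-93681339 on the plus strand. Tbx2 (ENSMUSG00000000093) is at chr11:85832551-85841948 on the plus strand. Tbx3 (ENSMUSG00000018604), at chr5:119670669-119684724, and Tbx5 (ENSMUSG00000018263), at chr5:119832668-119885219, are neighbours on the plus strand, 147943 bases apart. Exons of Shox2 overlap those of Rsrc1 on the other strand, and exons of Tbx3 overlap those of Tbx3os1. The strand setting of the counting is not given in the sources used here, so reads of these overlapping genes cannot be told apart from those of Shox2 and Tbx3. Rsrc1 had 729 to 1238 reads per library and Tbx3os1 134 to 537.

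Sequencing gave 14901842 to 25154115 counted reads per library (median 17820524), and each member had at least 84 reads in every library. All 10 members passed the low-count filter in every comparison. The forelimb label was checked on Tbx5, which stood at 200 to 309 CPM (read count relative to library size, scaled by TMM over the 45 libraries), and on the hindlimb genes Tbx4, at 17.3 to 29.4 CPM, and Pitx1, at 1.56 to 7.85 CPM. Per kilobase of gene model the ranges were 42.7 to 66 for Tbx5, 5.1 to 8.64 for Tbx4 and 0.586 to 2.96 for Pitx1, so the hindlimb genes were low but not at 0. The labels conflict in places, and the treatment protocol spells the compound out as bisphenol A. One characteristic of 1 µM 3 h replicate 5 names BPA at 10 uM while its title gives 1 µM BPAF. For 1 µM at 48 h, replicates 1 and 2 have swapped numbers in their library codes. Control 3 h replicate 3 and 1 µM 3 h replicate 1 held 0.101 and 0.457 CPM of summed Y-linked genes. The sexes were thus not evenly mixed in every library, whatever the labels say of the bottles. Y-linked genes held 1.05e-05% to 0.0156% of reads in the 3 h controls and 0.0177% to 0.0321% in the 24 h controls, without overlap. In the 48 h controls they held 0.00841% to 0.0285%. The first-day comparison in controls thus also differs in Y-linked level. Beyond a covariate for these genes, the part of embryo sex in the changes over time was not tested.

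Per kilobase, Tbx5 was the highest member in the 3 h controls at 62.5 ± 1.68 CPM per kb (SD, n = 5). Msx1 followed at 42.3 ± 2.94 and Shox2 at 41.5 ± 4.09, and the libraries of these neighbours overlapped. Lmx1b stood at 31.9 ± 1.35 CPM per kb, apart from both neighbours in the order. Tbx2 at 14.4 ± 0.973 and Lhx2 at 13 ± 1.15 overlapped, as did Lhx9 at 9.3 ± 0.515, Tbx3 at 9.23 ± 0.977 and Msx2 at 9.05 ± 0.845. Alx4 was the lowest at 3.21 ± 0.316. By 48 h Msx1 was in the fifth place at 10.9 ± 0.397 CPM per kb, where it overlapped Tbx2 at 11.2 ± 0.983. Tbx5 was still the highest at 46.8 ± 3.05 and Alx4 the lowest at 1.46 ± 0.332. Summed over the 10 members, the controls held 1028 ± 15 CPM at 3 h, 718 ± 23 at 24 h and 538 ± 25.3 at 48 h.

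**Figure D1:**
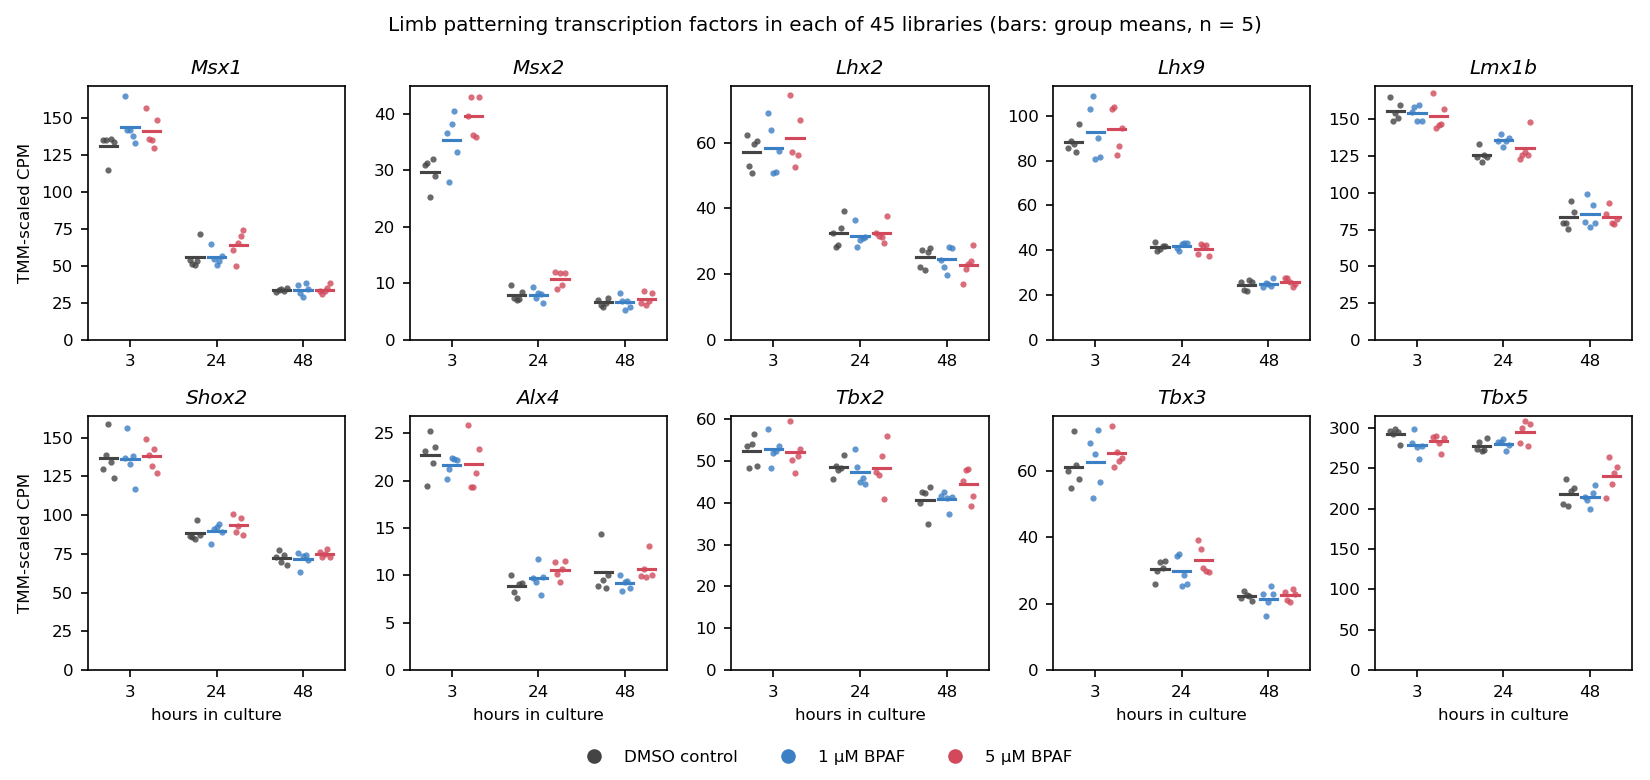
TMM-scaled CPM (vertical axes from 0) of each member in all 45 libraries against hours in culture; points are libraries, bars group means of 5, colours the treatment. The control mean is lower at 48 h than at 3 h in every panel, at 33.8 against 131 CPM for Msx1 and 219 against 292 for Tbx5. Libraries of the treatments overlap at each time, except for Msx2 at 3 h between 5 µM (mean 39.5 CPM) and control (29.7 CPM).

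The control cultures answer how the members change with time in culture without BPAF. All 10 members were lower at 48 h than at 3 h. On the first day, 24 h against 3 h, 8 of 10 fell, where 18.7% of the 16481 genes tested were lower. On the second day, 48 h against 24 h, 8 of 10 fell again, where 6.57% of 16445 genes were lower, and over both days 10 of 10 fell, where 25.4% of 16539 genes were lower. Tests are edgeR quasi-likelihood tests on raw counts with Benjamini-Hochberg adjustment over all genes tested, and a gene is called at an adjusted p under 0.05. The median log2 change of the members was -0.92 on the first day, -0.36 on the second and -1.15 over both, beside -0.009, -0.012 and -0.012 over all genes tested. In bulk tissue, fewer cells of a type and less RNA per cell cannot be told apart.

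Over both days the MSX genes had the lowest estimates, -2.15 for Msx2 and -1.95 for Msx1, with Lhx9 close at -1.84. On the first day alone Alx4 (-1.36) was below Msx1. Msx1 read 135, 135, 115, 136 and 134 CPM in the 3 h controls, 54.2, 51.2, 50.6, 53.5 and 71.5 at 24 h, and 32.2, 33.8, 34.6, 33.2 and 35.3 at 48 h. The 3 times did not overlap, and replicate 3 at 3 h and replicate 5 at 24 h stood apart from their groups. Msx1 changed by -1.22 ± 0.08 (log2, SE) on the first day (edgeR adjusted p = 4.90e-09) and by -0.74 ± 0.09 on the second (edgeR adjusted p = 2.93e-05), which left it at 25.8% of its 3 h level. Msx2 read 30.9, 31.3, 25.2, 32 and 28.9 CPM at 3 h, 9.64, 7.3, 7.07, 7.25 and 8.42 at 24 h, and 7.11, 6.22, 5.75, 6.58 and 7.46 at 48 h. Its 3 h libraries stood clear of all later ones, while those of 24 and 48 h overlapped. The change was -1.90 ± 0.10 on the first day (edgeR adjusted p = 2.66e-10) and -0.26 ± 0.13 on the second, which was not called (edgeR adjusted p = 0.207).

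Among the LIM-homeodomain genes Lhx9 fell the most. Its control libraries read 85.6, 88.6, 87.4, 83.7 and 96.4 CPM at 3 h, 43.6, 39.7, 40.6, 42.1 and 41.9 at 24 h, and 26, 22.4, 21.6, 26.9 and 25.9 at 48 h. The times were fully apart, and the spread within a time was small beside the steps: -1.09 ± 0.05 on the first day (edgeR adjusted p = 1.10e-10) and -0.77 ± 0.08 on the second (edgeR adjusted p = 5.13e-06). Lhx2, its close relative in distal mesenchyme, read 62.4, 52.9, 50.8, 59.6 and 60.4 CPM at 3 h, 32.6, 28.3, 28.7, 34.1 and 39.1 at 24 h, and 22.3, 27.2, 21.2, 26.8 and 27.8 at 48 h. It also had no overlap between times and kept 43.8% of its 3 h level at 48 h, where Lhx9 kept 27.8%. Lmx1b, the dorsal factor, read 165, 149, 154, 151 and 160 CPM at 3 h, 124, 133, 121, 126 and 124 at 24 h, and 79.2, 79.5, 75.6, 94.6 and 87.1 at 48 h. It was the called member with the smallest first-day change, -0.31 ± 0.05 (edgeR adjusted p = 8.29e-05), and changed by -0.60 ± 0.07 on the second day (edgeR adjusted p = 1.41e-05).

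The T-box genes split. Tbx3 read 59.9, 54.9, 71.8, 61.6 and 57.6 CPM at 3 h, 25.8, 29.7, 32.5, 30.6 and 32.9 at 24 h, and 21.8, 23.8, 22.7, 22.3 and 20.7 at 48 h. Its steps were -1.02 ± 0.08 and -0.45 ± 0.08, both called, with no overlap between times. Tbx5, its neighbour on the chromosome and the forelimb initiation factor, read 296, 292, 299, 295 and 279 CPM at 3 h, 274, 283, 272, 273 and 288 at 24 h, and 206, 237, 203, 222 and 226 at 48 h. The 3 and 24 h libraries of Tbx5 overlapped and its first-day change of -0.07 ± 0.04 was not called (edgeR adjusted p = 0.215), whereas the 48 h libraries were all below and the second-day change was -0.35 ± 0.05 (edgeR adjusted p = 3.17e-04). Tbx2, the other margin repressor, read 53.6, 48.3, 54.1, 56.4 and 48.8 CPM at 3 h, 45.7, 48.7, 47.8, 48.4 and 51.5 at 24 h, and 39.8, 42.5, 42.4, 34.9 and 43.8 at 48 h. It overlapped between 3 and 24 h (-0.11 ± 0.06, edgeR adjusted p = 0.151) and fell on the second day (-0.26 ± 0.07, edgeR adjusted p = 0.016). At 48 h Tbx2 and Tbx5 were still at 77.9% and 74.9% of their 3 h levels, and Tbx3 at 36.4%.

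Shox2, the proximal skeletal factor, read 130, 139, 159, 134 and 124 CPM in the 3 h controls, 86.5, 86.1, 84.9, 97.1 and 87.1 at 24 h, and 72.9, 77.5, 69.6, 74.4 and 67.6 at 48 h. No times overlapped, with steps of -0.64 ± 0.07 (edgeR adjusted p = 6.91e-07) and -0.29 ± 0.06 (edgeR adjusted p = 0.00322). Alx4 read 23.2, 19.4, 25.3, 21.9 and 23.6 CPM at 3 h, 10.1, 8.25, 7.64, 9.08 and 9.21 at 24 h, and 8.9, 14.4, 9.5, 8.66 and 10.1 at 48 h. Alx4 fell on the first day with no overlap (-1.36 ± 0.10, edgeR adjusted p = 1.37e-08), and its 24 and 48 h libraries overlapped (0.21 ± 0.14, edgeR adjusted p = 0.375). Alx4 was thus the only member with a second-day estimate above 0 in the controls, and that estimate did not pass the test.

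Whether the steps of the 2 days differed was tested as the second-day change minus the first-day change over the 15 control libraries, a comparison added after the data were seen. The difference was called for 5 of 10 members, where 11% of 17083 genes were called. Msx2 (1.67 ± 0.19, edgeR adjusted p = 5.02e-06), Alx4 (1.60 ± 0.23, edgeR adjusted p = 7.55e-05), Tbx3 (0.59 ± 0.14), Msx1 (0.51 ± 0.14) and Shox2 (0.37 ± 0.12) had the larger fall on the first day. The call of Shox2 (edgeR adjusted p = 0.0441) was lost on leaving out any of 11 of the 15 libraries, and that of Msx1 (edgeR adjusted p = 0.0223) without control 24 h replicate 1, 2, 3 or 4. Estimates below 0, for a larger second-day fall, were those of Lmx1b (-0.26 ± 0.10, edgeR adjusted p = 0.103), Tbx5 (-0.25 ± 0.09, edgeR adjusted p = 0.0632) and Tbx2 (-0.12 ± 0.12, edgeR adjusted p = 0.614), and none passed edgeR's threshold. Tbx5 passed with RLE scaling (-0.26, edgeR adjusted p = 0.0458), in 1 fit over all 45 libraries (-0.27, edgeR adjusted p = 0.0188) and with DESeq2 (-0.27, adjusted p = 0.00798). Lhx9 (0.35 ± 0.11, edgeR adjusted p = 0.0512) and Lhx2 (0.45 ± 0.17, edgeR adjusted p = 0.0899) had estimates above 0 that were not called, and Lhx9 passed with DESeq2 (0.34, adjusted p = 0.0359). DESeq2 called 7 members in all, and 9 had an unadjusted p under 0.05 by edgeR.

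The BPAF cultures are other libraries taken through the same times, and the falls recurred in them. With 1 µM BPAF, 9 of 10 members were lower on the first day (19.8% of 16663 genes lower) and 8 of 10 on the second (8% of 16503 genes lower). With 5 µM BPAF, 8 of 10 were lower on the first day (17.4% of 16621 genes lower) and 8 of 10 on the second (5.49% of 16316 genes lower). The additional call with 1 µM was Tbx2 (-0.16 ± 0.06, edgeR adjusted p = 0.0482), a value that left the threshold on leaving out any of 8 of the 10 libraries and under 5 other settings. On the second day the 1 µM call of Tbx2 (-0.21 ± 0.06) was lost without 24 h replicate 1 or 48 h replicate 4. The first-day call of Lmx1b with 5 µM (-0.23) was lost without 24 h replicate 1 (-0.20, edgeR adjusted p = 0.0505). With 5 µM Msx2 also fell on the second day (-0.58 ± 0.14, edgeR adjusted p = 0.00995) and Tbx2 did not pass on either day. Tbx5 passed on the second day with both doses and on the first with neither, at 0.00 ± 0.05 with 1 µM and 0.05 ± 0.05 with 5 µM.

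**Figure D2:**
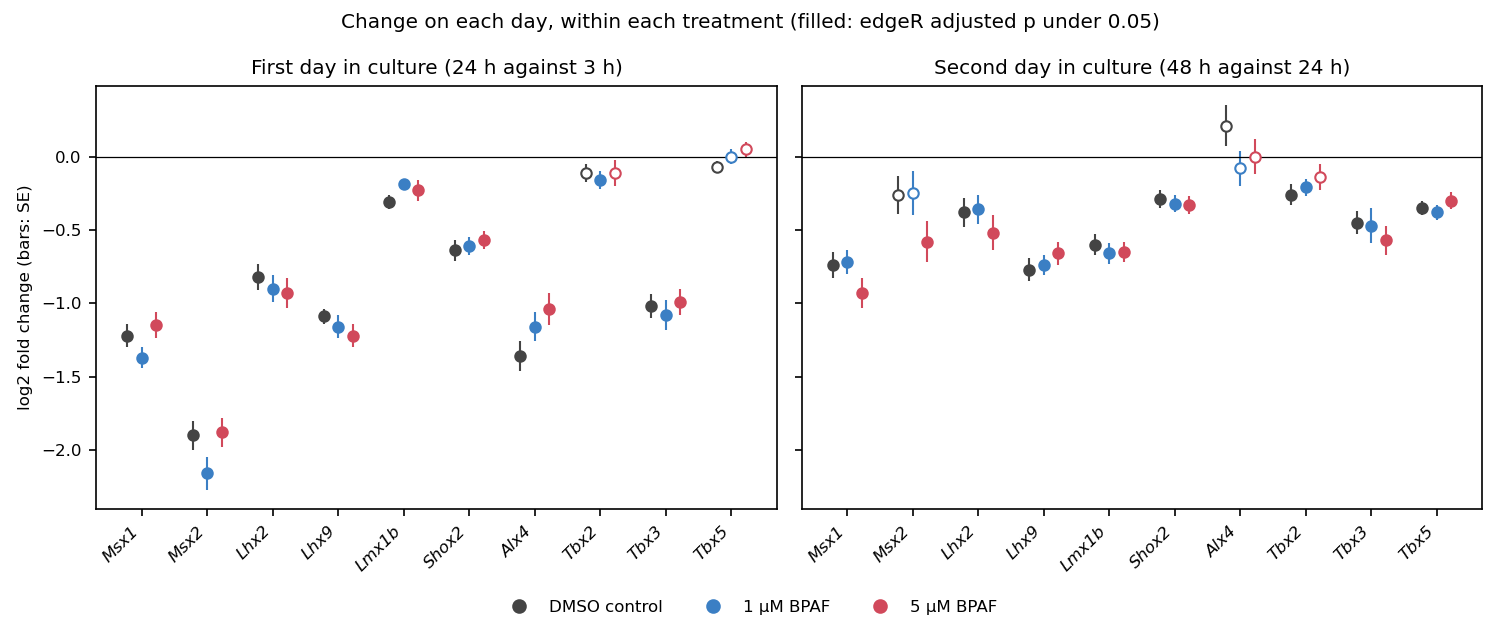
Log2 fold change of each member on the first day (24 h against 3 h, left) and the second day (48 h against 24 h, right), with SE bars, in DMSO controls, 1 µM BPAF and 5 µM BPAF; filled points passed edgeR's adjusted p under 0.05. Msx2 is lowest on the first day, at -1.90 in controls, and Tbx2 and Tbx5 lie near 0 there; on the second day the control values lie between -0.77 and 0.21.

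Markers of other cell types and states also changed over these days, in both directions and not always on both days. All 8 dividing-cell markers were lower on the first day in controls, among them Top2a (-1.24 ± 0.05) and Mki67 (-1.24 ± 0.07), and 0 of 8 were called on the second, with 4 at an unadjusted p under 0.05 by edgeR (Top2a 0.12 ± 0.05, Mki67 0.14 ± 0.07). Their summed level was 1545 to 1692 CPM in the 3 h controls, 790 to 846 at 24 h and 819 to 864 at 48 h. Chondrocyte markers were higher for 9 of 10 on the first day and 7 of 10 on the second, with summed levels of 3819 to 4212, 8371 to 10086 and 13096 to 16420 CPM. Epidermis markers were lower for 6 of 8 on the first day and 0 of 8 were called on the second (1 at an unadjusted p under 0.05 by edgeR), with summed levels of 397 to 614, 89.3 to 380 and 202 to 324 CPM. Erythroid markers were lower on both days, 6 of 6 and then 5 of 5 measured, with medians of -1.24 and -1.78 and summed levels of 790 to 1148, 481 to 1023 and 209 to 328 CPM. Osteoblast markers were higher for 6 of 6 and macrophage markers for 6 of 7 on each day. Skeletal muscle markers were higher for 7 of 8 on the first day and 3 of 8 on the second. Endothelium markers were lower for 6 of 6 on the first day, and 1 of 6 was higher on the second. Tendon markers had 3 of 5 higher and 1 lower on each day, and Schwann cell markers 2 of 5 lower on each day. No marker of these lists was at 0 throughout a control group. Their part in the members' changes was not tested.

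Other genes of limb patterning were counted by lists. Of 23 further patterning transcription factors, 22 were measured on the first day in controls: 16 were lower, 1 was higher and 5 were not called, with a median of -0.53. Among those with the smallest p were Prrx2 (-0.85 ± 0.07) and Twist1 (-0.67 ± 0.06), mesenchymal factors, and Sall1 (-0.58 ± 0.07). On the second day 9 of 22 were lower, including Hand2 (-0.60 ± 0.07), a posterior factor, and Tbx18 (-0.59 ± 0.08). Ligands and their antagonists had 5 of 13 lower and 2 higher on the first day. Wnt7a, the dorsal ectodermal ligand upstream of Lmx1b, went from 5.23 to 1.47 CPM (log2 change -1.82 ± 0.28), and Wnt3, a ridge ligand, from 14.7 to 3.95 CPM (-1.90 ± 0.27). Targets of patterning signals went both ways, 8 of 14 lower and 5 higher. Lef1, a WNT pathway factor, changed by -1.33 ± 0.10, while Ptch1 and Hhip, hedgehog targets, changed by 0.95 ± 0.07 and 0.98 ± 0.09. Targets of fibroblast growth factors were split: Etv5 (1.03 ± 0.06) and Spry2 (0.23 ± 0.07) were higher and Etv4 (-0.47 ± 0.11) lower. Dusp6 (-0.18 ± 0.08, edgeR adjusted p = 0.0932), also such a target, was not called. Of 8 cofactors that bind LIM-homeodomain proteins, or compete for them, 2 were lower on the first day, Ldb2 (-0.39 ± 0.06) and Ssbp3 (-0.15 ± 0.05). On the second day 3 were lower and 2 higher, the latter Lmo1 (0.61 ± 0.16) and Lmo2 (0.36 ± 0.10).

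Genes with the pattern most like each member were ranked by Pearson r of log2 CPM over the 45 libraries among 12674 genes, as a description. The libraries fall into 3 culture times and share 1 scaling, so r reads the steps between times as well as the spread within them. Msx1 was most like Lmnb1, which encodes lamin B1, and Lhx9, both with r = 0.98. Lhx9 was most like Lmnb1 and Hmga2 (both 0.98), Lhx2 like Msx1 (0.97) and Lmnb1 (0.96), Tbx3 like Msx1 and Kdm4a (both 0.96), and Shox2 like Lhx9 (0.97) and Zfp41 (0.96). The 2 nearest genes thus included another member for Lhx2, Msx1, Tbx3 and Shox2. With group means taken out, r was 0.65 for Lhx2 with Msx1 and -0.00 for Msx1 with Lhx9. It was 0.14 for Tbx3 with Msx1 and 0.21 for Shox2 with Lhx9. Msx2 was most like Stmn1 and Kif2c (both 0.96) and Alx4 like Cdc20 and Knstrn (both 0.95), of which Kif2c, Cdc20 and Knstrn act in mitosis. Lmx1b was most like Lsm14b (0.97) and Nnat (0.96), Tbx5 like Cd24a and Iglon5 (both 0.93), and Tbx2 like Cdk4 (0.85) and Csrp2 (0.84). Culture time held 60.7% of the variance of log2 CPM for Tbx2, 80.9% for Tbx5 and between 90.4% and 98.1% for the other 8. Dose within a time held 0.2% to 7.3%, the highest share being that of Tbx5, whose libraries within groups held 11.9%. For Tbx2 dose held 4.1% beside 35.2% within groups, and for Msx2 2.3% beside 2.6%.

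The BPAF groups answer whether the compound moved the members at a given time. With 5 µM at 3 h, 1 of 10 members was higher, Msx2, where 0.114% of 16651 genes were higher and 0.18% were called in either direction. In 90 member tests over the 9 dose comparisons, this was the only call. Msx2 read 30.9, 31.3, 25.2, 32 and 28.9 CPM in the 3 h controls, 36.5, 27.9, 38.1, 40.5 and 33.3 with 1 µM, and 39.5, 43, 36.3, 35.9 and 43 with 5 µM. Every 5 µM library was above every control, while the 1 µM libraries overlapped both. The change with 5 µM was 0.42 ± 0.08 (log2, SE; edgeR adjusted p = 0.0221), from 29.7 to 39.5 CPM, and with 1 µM it was 0.25 ± 0.09 (unadjusted p = 0.013 by edgeR, adjusted p = 1). The 5 µM libraries exceeded the 1 µM libraries by 0.16 ± 0.09 (95% interval -0.04 to 0.37, edgeR adjusted p = 0.838).

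The Msx2 call stood close to the threshold. It was lost without 5 µM replicate 2 (0.38, edgeR adjusted p = 0.0786) or 5 (0.39, 0.0925), and without control replicate 1 (0.43, 0.0543), 3 (0.36, 0.0502) or 5 (0.41, 0.0771). One fit over all 45 libraries gave 0.41 (edgeR adjusted p = 0.108) and a covariate for Y-linked genes 0.35 (edgeR adjusted p = 0.103). Control replicate 3, the library with the lowest Msx2, held 0.101 CPM of summed Y-linked genes, where the other 3 h controls held 74.3 to 155 and the 5 µM libraries 83.4 to 194. The other 3 h library nearly without Y-linked reads, 1 µM replicate 1 at 0.457 CPM, had 36.5 CPM of Msx2, where its group mean was 35.2. Beyond the covariate, the part of embryo sex in the Msx2 value was not tested. In the authors' deposited table the change of Msx2 was 0.41 with an adjusted p of 0.000468. Epidermis markers, which stand for the tissue that includes the ridge, had estimates of 0.05 to 0.43 at 5 µM, a median of 0.25 beside 0.001 over all genes, and 0 of 8 called by edgeR, with 4 at an unadjusted p under 0.05. Their summed level was 397 to 614 CPM in controls and 549 to 700 with 5 µM, none of them was at 0 in a group, and their part in the Msx2 value was not tested.

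Msx2 responds to BMP signals, and at 3 h each of 2 lists that hold BMP pathway genes had 1 call. Both lists also hold genes of the WNT, fibroblast growth factor and hedgehog pathways. Of 12 measured ligands and antagonists, Nog, which encodes the BMP antagonist noggin, was the only one called with 5 µM. It read 49, 44.2, 44.5, 41.7 and 46.1 CPM in controls, 44.9, 45.1, 33.3, 39.3 and 41.6 with 1 µM, and 30.4, 25.5, 31.6, 30.9 and 30.4 with 5 µM. All 5 µM libraries were below all controls (-0.60 ± 0.07, edgeR adjusted p = 2.15e-04). Of 14 signal targets, whose estimates ran from -0.39 to 0.31, only Id1, an early BMP target, was called. Unadjusted p was under 0.05 by edgeR for 10 of these 14 targets and for 5 of the 12 ligands and antagonists. Id1 read 102, 108, 97.1, 105 and 108 CPM in controls and 130, 121, 133, 119 and 142 with 5 µM, again without overlap (0.31 ± 0.05, edgeR adjusted p = 0.0141). The medians of the 2 lists were 0.07 and 0.08, beside 0.001 over all genes. These medians, and the counts by unadjusted p, cover all pathways in the lists. Other BMP genes were not called with 5 µM at 3 h. Their mean CPM in controls and with 5 µM was 129 and 143 for Id2, 180 and 200 for Id3, and 39.4 and 40.6 for Smad6. For the ligands it was 39.2 and 44.4 for Bmp2, 36.2 and 38.2 for Bmp4, and 74.5 and 77.7 for Bmp7. These values come from the same 10 libraries as that of Msx2, and the part of BMP signalling in the Msx2 value was not tested. At 24 h neither Nog nor Id1 was called, with Nog at -0.27 ± 0.10 (edgeR adjusted p = 0.26) and Id1 at 0.28 ± 0.09 (edgeR adjusted p = 0.175).

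**Figure D3:**
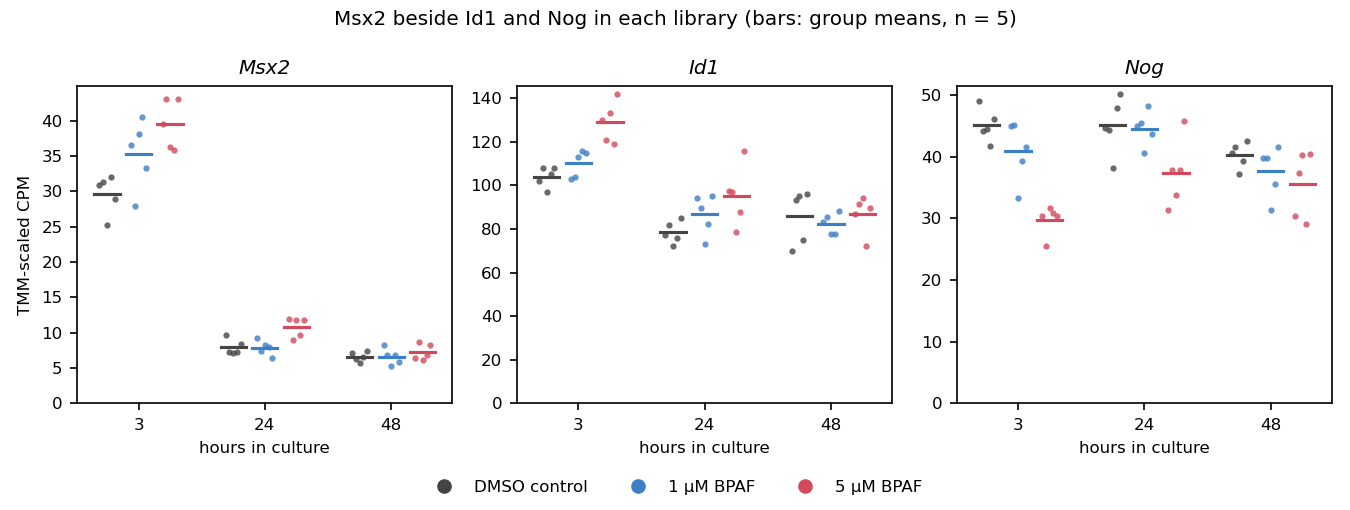
TMM-scaled CPM (vertical axes from 0) of Msx2, Id1 and Nog in each library against hours in culture; points are libraries, bars group means of 5, colours the treatment. At 3 h the 5 µM means are 39.5 for Msx2, 129 for Id1 and 29.8 for Nog, against control means of 29.7, 104 and 45.1.

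At 24 h Msx2 had fallen in all treatments and read 9.64, 7.3, 7.07, 7.25 and 8.42 CPM in controls, 9.3, 7.42, 8.32, 8.03 and 6.43 with 1 µM, and 11.9, 8.92, 11.8, 9.66 and 11.8 with 5 µM. The lowest 5 µM library lay below the highest control. The difference of 0.44 ± 0.13 had a larger error than that at 3 h and was not called (edgeR adjusted p = 0.124), and 0 of 10 members were called with 5 µM at 24 h, where 1.57% of 16433 genes were. Unadjusted p was under 0.05 for 2 members, Msx2 and Alx4 (0.26 ± 0.11), and DESeq2 called 0. Msx2 passed in 1 fit over all 45 libraries (0.45, edgeR adjusted p = 0.0221) and in the authors' deposited table (0.45, adjusted p = 0.0488). Msx1, with 60.7, 49.8, 65.5, 70 and 74.1 CPM against 54.2, 51.2, 50.6, 53.5 and 71.5 in controls, overlapped throughout (0.18 ± 0.11). The change of the 5 µM effect from 3 to 24 h was called for 0 of 10 members (0.336% of 17535 genes), with 0.04 ± 0.14 for Msx2 (95% interval -0.26 to 0.35). Unadjusted p was under 0.05 there for 2 members, Tbx5 and Alx4, and DESeq2 called 0.

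At 48 h with 5 µM, 0 of 10 members were called, where 7.16% of 16345 genes were, the most of any dose comparison. No member had an unadjusted p under 0.05 and DESeq2 called 0. The 95% intervals of the 10 members lay between -0.43 and 0.45 on the log2 scale. Msx2 read 6.45, 8.63, 6.17, 6.91 and 8.27 CPM with 5 µM and overlapped the controls (0.12 ± 0.14). The change of the 5 µM effect from 24 to 48 h was called for 0 of 10 members (0.0693% of 17315 genes, 0 members at an unadjusted p under 0.05, 0 by DESeq2), with -0.31 ± 0.18 for Msx2. In the same libraries 7 of 8 skeletal muscle markers were lower, among them Pax7 (-1.99 ± 0.13), the satellite-cell factor, and 6 of 7 macrophage markers. Dividing-cell markers had 0 of 8 called by edgeR (2 at an unadjusted p under 0.05) and chondrocyte markers 0 of 10 (4 at an unadjusted p under 0.05). Of the other patterning factors 1 of 22 was called, Dlx5 (0.32 ± 0.09, edgeR adjusted p = 0.0282), a factor of ridge and skeleton. Signal targets had 1 of 14 higher and 2 lower at 48 h: Id2, a BMP target, was higher (0.38 ± 0.06), and Etv5 (-0.38 ± 0.06) and Spry2 (-0.31 ± 0.09), targets of fibroblast growth factors, were lower. Of 11 measured ligands and antagonists 2 were lower, Fgf4 (-1.96 ± 0.33, from 2.21 to 0.569 CPM) and Fgf9 (-0.38 ± 0.11). In controls Fgf4 had risen from 0.293 CPM at 3 h to 2.07 at 24 h, and its cell source was not tested. At 24 h with 5 µM, 1 target was higher, Id2 (0.33 ± 0.07), and 1 lower, Hhip (-0.53 ± 0.10), while 0 of 12 ligands and antagonists were called by edgeR (5 at an unadjusted p under 0.05).

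With 1 µM BPAF no member was called at any time. The background was 0% of 16631 genes at 3 h, 0.00608% of 16439 at 24 h and 0% of 16479 at 48 h, and DESeq2 called 0 members at each. Unadjusted p was under 0.05 for Msx1 and Msx2 at 3 h, for Lmx1b at 24 h (0.11 ± 0.05) and for none at 48 h. Msx1 read 165, 142, 142, 138 and 133 CPM with 1 µM at 3 h, where replicate 1 stood apart (0.14 ± 0.06). The 95% intervals of the 10 members lay between -0.26 and 0.46 at 3 h, -0.31 and 0.41 at 24 h and -0.49 and 0.33 at 48 h.

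**Figure D4:**
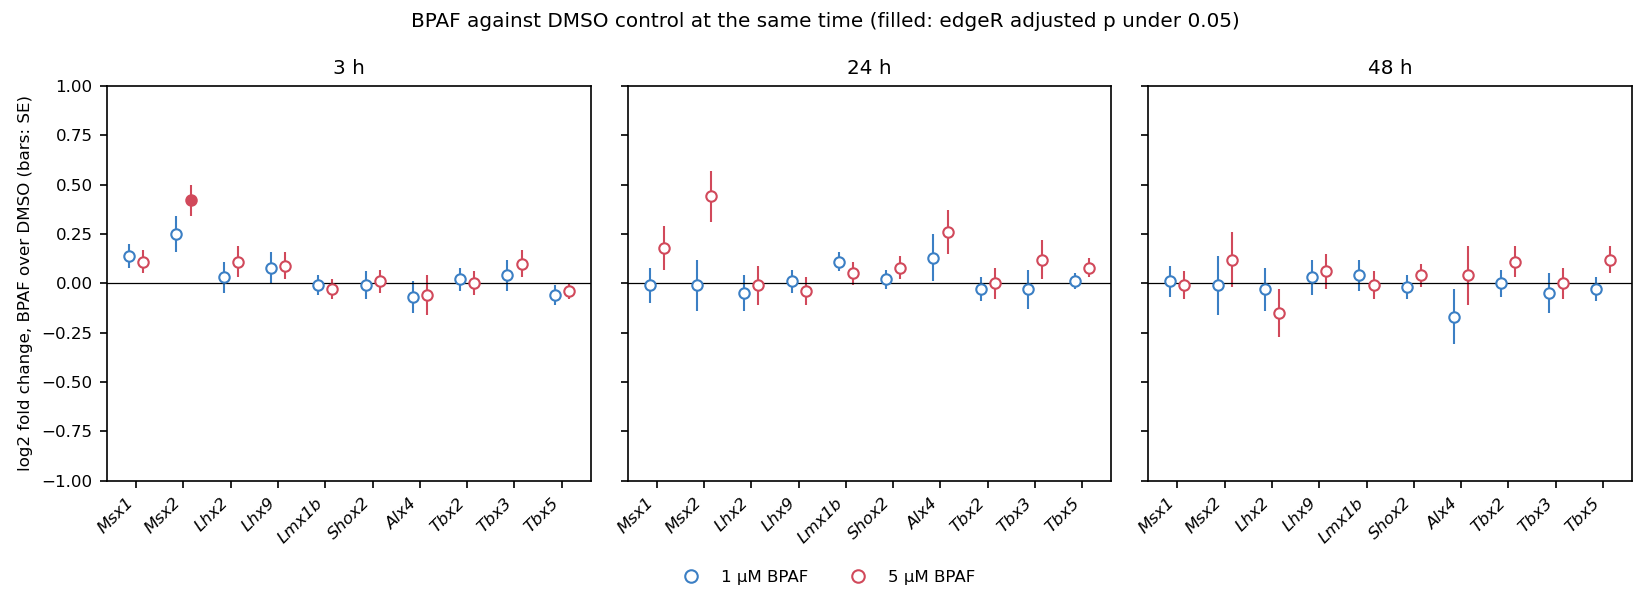
Log2 fold change of each member, BPAF over the DMSO control of the same time, with SE bars, at 3, 24 and 48 h; filled points passed edgeR's adjusted p under 0.05. Msx2 with 5 µM at 3 h, at 0.42, is the only filled point; Msx2 with 5 µM at 24 h lies at 0.44 with a wider error.

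Set against each other, 5 and 1 µM differed in 0 of 10 members at 3 h (0.036% of 16681 genes called), at 24 h (1.19% of 16496) and at 48 h (5.96% of 16349), and DESeq2 also called 0 each time. With the replicate numbers as a block, which were taken to pair these libraries at 3 h, 50 genes were called in place of 6 at 3 h and still no member. Unadjusted p was under 0.05 for no member at 3 h, for Msx2 at 24 h (0.44 ± 0.13, edgeR adjusted p = 0.16) and for Tbx5 at 48 h. Tbx5 read 214, 211, 200, 219 and 229 CPM with 1 µM at 48 h and 213, 264, 231, 244 and 252 with 5 µM, beside 206, 237, 203, 222 and 226 in controls. All groups overlapped, and the difference between doses was 0.15 ± 0.06 (edgeR adjusted p = 0.174). Tbx5 passed in 1 fit over all 45 libraries (0.16, edgeR adjusted p = 0.0227) and with a block by library code (0.15, edgeR adjusted p = 0.0465).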

How the data were processed

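Poly-A RNA of 45 libraries of mouse forelimb buds was analysed from 9 deposited tables. They hold, per the file headers, the authors' raw read counts, their normalized signal (count over 1 size factor per library and table), FPKM, a log2 fold change and p-values. The submitters' processing notes list STAR 2.5, HTSeq 0.6.1, CASAVA 1.8 and DESeq2 and build mm10, their roles and the strand setting not given in the sources used here.

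Counts were joined by gene identifier, and absent entries (11.7% of gene and library combinations) were read as 0. Each comparison was fitted on its own libraries with edgeR 4.0.16 (R 4.3.3, TMM, quasi-likelihood F-test, filterByExpr with a minimum count of 10 and a total of 15), adjusted over all genes tested, and checked on simulated data. SE is the log2 fold change over the square root of F, and 95% intervals use the residual degrees of freedom. Levels are TMM CPM, and log2 CPM used a prior count of 2. Only raw counts entered tests, since tables were scaled separately.

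All 10 members were named in every comparison, from each other list up to 4 called genes of smallest p, and for each member the 2 most similar genes with a mean CPM of at least 2. One gene that this rule names is not reported here. Nog and Id1 at 24 h were added after their 3 h values were seen. The uncalled BMP genes at 3 h, and Etv4, Spry2 and Dusp6 on the first day in controls, were named outside the rule of smallest p. The members and lists were chosen with earlier results of these data known, and 5 of 19 comparisons were added after the data were seen. Alternatives were RLE scaling, no filter, DESeq2 1.42.0, 1 fit over 45 libraries, a Y-linked covariate, a replicate block and leaving out each library. Replicate numbers were taken to pair 1 µM with 5 µM at 3 and 48 h and control with 1 µM at 24 h. There each pair's deviations correlated above 0.1 (medians 0.24, 0.33 and 0.32). Control with 5 µM did not meet this at any time, though its medians were 0.18, 0.29 and 0.30 at 3, 24 and 48 h. Promoter windows are RefSeq's, build GRCm38.p6.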

Additional observations from a re-analysis of the deposited data

Results flagged for a closer look

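In 8 of 90 sets of 5 libraries, 1 library of a member stood apart by Dixon's test, where chance gives about 1 in 20. Msx1 had 3 of them: 115 CPM in control 3 h replicate 3, with the next library at 134, 165 CPM in 1 µM 3 h replicate 1, with the next at 142, and 71.5 CPM in control 24 h replicate 5, with the next at 54.2. Alx4 had 2: 14.4 CPM in control 48 h replicate 2, with the next at 10.1, and 13.1 CPM in 5 µM 48 h replicate 4, with the next at 10.7. Lmx1b read 148 CPM in 5 µM 24 h replicate 5, with the next at 128. Tbx2 read 37.3 CPM in 1 µM 48 h replicate 4, with the next at 41.2. Shox2 read 97.1 CPM in control 24 h replicate 4, with the next at 87.1. None of these sets was that of Msx2.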

How the results depend on the processing

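Of 3320 member values recomputed under another setting, 3257 kept their side of the threshold, 43 were no longer called, 20 were newly called and 0 called values reversed. Uncalled values changed sign 177 times. The falls over time in controls kept their calls and direction under every setting run for 24 h against 3 h, 48 h against 24 h and 48 h against 3 h. The count of members called with 5 µM at 3 h, 1, became 0 in 1 fit over all 45 libraries and 0 with the Y-linked covariate, and was 0 to 1 on leaving out single libraries. Msx2 there ranged from 0.36 to 0.45 over the left-out libraries. The count of 0 with 5 µM at 24 h became 1, Msx2, in 1 fit over all 45 libraries, and that of 5 against 1 µM became 1 in that fit at 24 h (Msx2) and at 48 h (Tbx5). The count of 5 for the second minus the first day in controls became 3 with the Y-linked covariate and was 3 to 6 on leaving out single libraries. The causes were not tested.

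With the replicate block, the count with 5 µM at 24 h became 1, with Msx2 at 0.44 (edgeR adjusted p = 0.0437), and genes called rose from 258 to 655. At 3 h with 5 µM the block kept 1 member, with genes called going from 30 to 62. The block by library code, chosen after seeing the data, gave 1 member, Tbx5, for 5 against 1 µM at 48 h and 1618 genes in place of 974. For control and 5 µM not every pair's deviations correlated above 0.1, with medians of 0.18, 0.29 and 0.30 at 3, 24 and 48 h. Whether the numbers pair these libraries is therefore not settled. Among the dose comparisons and tests of a changed 5 µM effect, the block changed no other count of members.

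Counts over all genes moved by more than 1.5 times. With 5 µM at 3 h, 30 became 79 without the filter and 115 with DESeq2. With 5 µM at 24 h, 258 became 510 with DESeq2, 587 in 1 fit and 424 with the covariate. For 5 against 1 µM, 6 at 3 h became 25 without the filter, 40 with DESeq2 and 12 in 1 fit, and 196 at 24 h became 344, 348 and 327 with DESeq2, 1 fit and the covariate, and 319 with the block. The changed effect from 3 to 24 h went from 59 to 149 with DESeq2 or the block and to 30 with the covariate, and that from 24 to 48 h from 12 to 27, 42, 38 and 50 without the filter, with DESeq2, in 1 fit and with the block. With 1 µM, 1 at 24 h became 3 without the filter and 2 with DESeq2 or the block, and 0 at 48 h became 1 without the filter and 4 with DESeq2. On leaving out single libraries, the count over all genes was 15 to 45 with 5 µM at 3 h, 109 to 498 with 5 µM at 24 h, 1 to 9 and 95 to 553 for 5 against 1 µM at 3 and 24 h, 30 to 109 and 2 to 17 for the changed effects, and 0 to 1 with 1 µM at 3 h. The shares of all genes set beside the member counts move with them. Msx2 had 123 to 242 reads per library in the 24 h control and 5 µM groups, with an SE of 0.13, and 465 to 822 at 3 h, with an SE of 0.08.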
